A study of Homo sapiens with 16 samples.

Results

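The genes described here encode 7 ATP-driven export pumps, ABCC1, ABCC2, ABCC3, ABCC4, ABCC5, ABCC10 and ABCG2, in cells of 3 human cancer lines that differ in STAG2. STAG2 lies on the X chromosome and encodes part of cohesin, which encircles DNA and keeps the copies of a chromosome paired until they separate in mitosis. The genes were listed by name, and each was read from the row of the array that is annotated to it alone, taking the row with the highest mean where a gene has several. All 7 had 1 such row, and all 7 were among the 12978 genes tested of 18417 with a row of their own. The group was chosen by the H4 contrast, in which ABCC2 was higher, and unevenly so, in the STAG2-deficient arrays. Every value from that contrast is therefore a description without a test, and only the other lines and comparisons are tested.

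Total RNA of 16 untreated, subconfluent cultures in the same serum-containing medium was hybridised to 1 array each. H4, labelled as glioblastoma cells, carries a STAG2 mutation. Its deficient group held the parental culture with non-recombinant clones 10 and 12, and its corrected group held the knock-in clones 8-1, 8-3 and 88-1, taken after Cre recombination. 42MGBA, labelled in the same way, also carries a STAG2 mutation. Its deficient group held the parental line and the knock-in clones 53 and 92 before Cre recombination, and its corrected group held the post-Cre clones 53-1, 53-7 and 92-6. HCT116 is a colorectal cancer line with intact STAG2, represented by the non-recombinant clones 24 and 27 as wild-type and by clones 7 and 21 as STAG2 knockouts. Each array apart from the parental ones is 1 clone, and 8-1 with 8-3, and 53-1 with 53-7, come from the same parent clone. P-values therefore measure the spread between these cultures and clones, not between independent tumours. By their numbers, 53-1 and 53-7 come from the pre-Cre clone 53 and 92-6 from 92, so the 42MGBA groups are partly paired. The main fit leaves this pairing out, and a parent clone block was run as an alternative.

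ABC transporters bind ATP and use it to move compounds across membranes. The ABCC proteins measured here export organic anions, many of them joined to glutathione, glucuronate or sulphate, and ABCG2 works as a dimer that exports a wide range of drugs and also urate. Several of these pumps were named for the drug resistance they give to cultured cancer cells. In the liver ABCC2 lies in the membrane facing the bile and exports conjugated bilirubin, and in the brain ABCG2 lies in the capillary wall, where it keeps drugs out of the tissue.

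STAG2 checked the labels in H4 and HCT116 but not in 42MGBA. In H4 its log2 level was 6.57 to 6.96 in deficient against 8.87 to 8.94 in corrected arrays, and in HCT116 6.57 and 7.14 in knockouts against 9.28 and 9.30 in wild-type clones. In 42MGBA the arrays labelled deficient lay at 4.75 to 5.60 and those labelled corrected at 5.41 to 5.65, so the groups overlapped. Directions in 42MGBA rest on the labels alone. The 42MGBA arrays also lie on a lower scale, with array medians up to 5.05 against 6.23 or more in H4 and 6.24 or more in HCT116. Levels of 42MGBA are therefore set beside the other lines only as percentiles, the share of the 33297 rows of an array that lie at or below the gene. The colorectal marker list had 7 of 10 genes above the array median on every HCT116 array, EPCAM and CDH1 among them, against 4 in H4 and 5 in 42MGBA. CDX1, CDX2, KRT8 and KRT18 were above it on every array of all 3 lines, and CDH17 was below the lower quartile on every array of all 3 lines. Of the glial list, 3 of 10 genes were above the median on every H4 array, 4 on every 42MGBA array and 3 on every HCT116 array, so this list did not set the brain tumour lines apart. FABP7 and PTPRZ1 were below the lower quartile on every array of all 3 lines, and S100B on every H4 and every HCT116 array. The main axis of variation in H4, with 46.5% of the variance, put clone 10 at 30.2 and the other deficient arrays at 0.8 and 12.5, against -18.5 to -11.6 for the corrected arrays. In HCT116 it put knockout clone 21 at 23.6 and the other 3 arrays between -9.1 and -6.6.

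The start regions of 4 of these genes are shown to set the gene with the widest range in H4, ABCC2, and the one with the narrowest, ABCC10, beside ABCG2 and ABCC4. This choice was made after the values were seen. Each stretch is the 300 bases from 250 before to 50 after the start of the gene, written 5′ to 3′ in the direction of transcription, from RefSeq on GRCh38.p14. ABCC2 is at chr10:99782390-99782689 on the plus strand, ABCG2 at chr4:88231577-88231876 on the minus strand, ABCC4 at chr13:95301402-95301701 on the minus strand and ABCC10 at chr6:43427613-43427912 on the plus strand. Capitals mark matches, on either strand, to 3 motifs. The GC box was searched as GGGCGG. The core of the element that NRF2 binds was searched as TGACNNNGC, and the TATA box as TATAAA.
ABCC2: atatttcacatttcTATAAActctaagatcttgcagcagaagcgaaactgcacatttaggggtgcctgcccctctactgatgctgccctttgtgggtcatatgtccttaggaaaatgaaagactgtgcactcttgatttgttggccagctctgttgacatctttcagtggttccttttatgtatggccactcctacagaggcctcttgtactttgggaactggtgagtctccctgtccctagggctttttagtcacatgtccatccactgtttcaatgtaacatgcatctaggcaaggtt
ABCG2: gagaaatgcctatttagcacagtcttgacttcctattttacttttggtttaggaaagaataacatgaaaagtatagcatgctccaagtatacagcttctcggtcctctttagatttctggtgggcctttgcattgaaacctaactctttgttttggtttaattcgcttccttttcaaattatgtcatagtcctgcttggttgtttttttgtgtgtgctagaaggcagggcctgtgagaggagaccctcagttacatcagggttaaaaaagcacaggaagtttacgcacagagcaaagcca
ABCC4: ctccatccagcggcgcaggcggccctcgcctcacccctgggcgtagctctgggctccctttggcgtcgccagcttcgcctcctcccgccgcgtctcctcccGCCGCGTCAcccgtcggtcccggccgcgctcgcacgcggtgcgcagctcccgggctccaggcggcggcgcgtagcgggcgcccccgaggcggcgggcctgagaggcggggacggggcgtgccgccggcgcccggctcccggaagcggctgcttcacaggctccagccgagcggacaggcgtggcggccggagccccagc
ABCC10: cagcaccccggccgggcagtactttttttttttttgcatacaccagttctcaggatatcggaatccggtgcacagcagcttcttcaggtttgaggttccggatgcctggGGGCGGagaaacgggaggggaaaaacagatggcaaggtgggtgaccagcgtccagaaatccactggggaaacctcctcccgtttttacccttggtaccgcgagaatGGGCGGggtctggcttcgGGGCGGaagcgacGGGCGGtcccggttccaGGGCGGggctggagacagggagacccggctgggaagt

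These regions differ widely in CG dinucleotides, the sites of DNA methylation. ABCC2 has 1, and 4.2% of the 27305 promoters of the RefSeq table have fewer. ABCG2 has 3, with 19.0% of promoters below it, against a median of 14 over all promoters. ABCC10 has 20 (58.8% below), ABCC5 has 26 (70.2% below) and ABCC4 has 47 (97.6% below). The ABCC2 region holds 1 TATAAA, as 12.0% of all promoters do at least once. It follows the first 14 bases of the region, at the end far from the start of the gene. The ABCC4 region holds 1 TGACNNNGC, which 13.6% of promoters hold, and the ABCC10 region holds 5 GGGCGG, a motif found in 44.6% of promoters. ABCC5 (chr3:184017835-184018134, minus strand, not printed) holds 1 GGGCGG and 1 TATAAA, and ABCG2 holds none of the 3 motifs. No matches overlapped in these regions. A match is a description of the letters and not of a factor's binding. Each gene is given by 1 such window, and other starts of a gene were not searched. The CG and motif counts hold for these windows only. Of the 7 genes 5 matched the promoter table, and ABCC1 and ABCC3 are not shown.

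**Figure D1:**
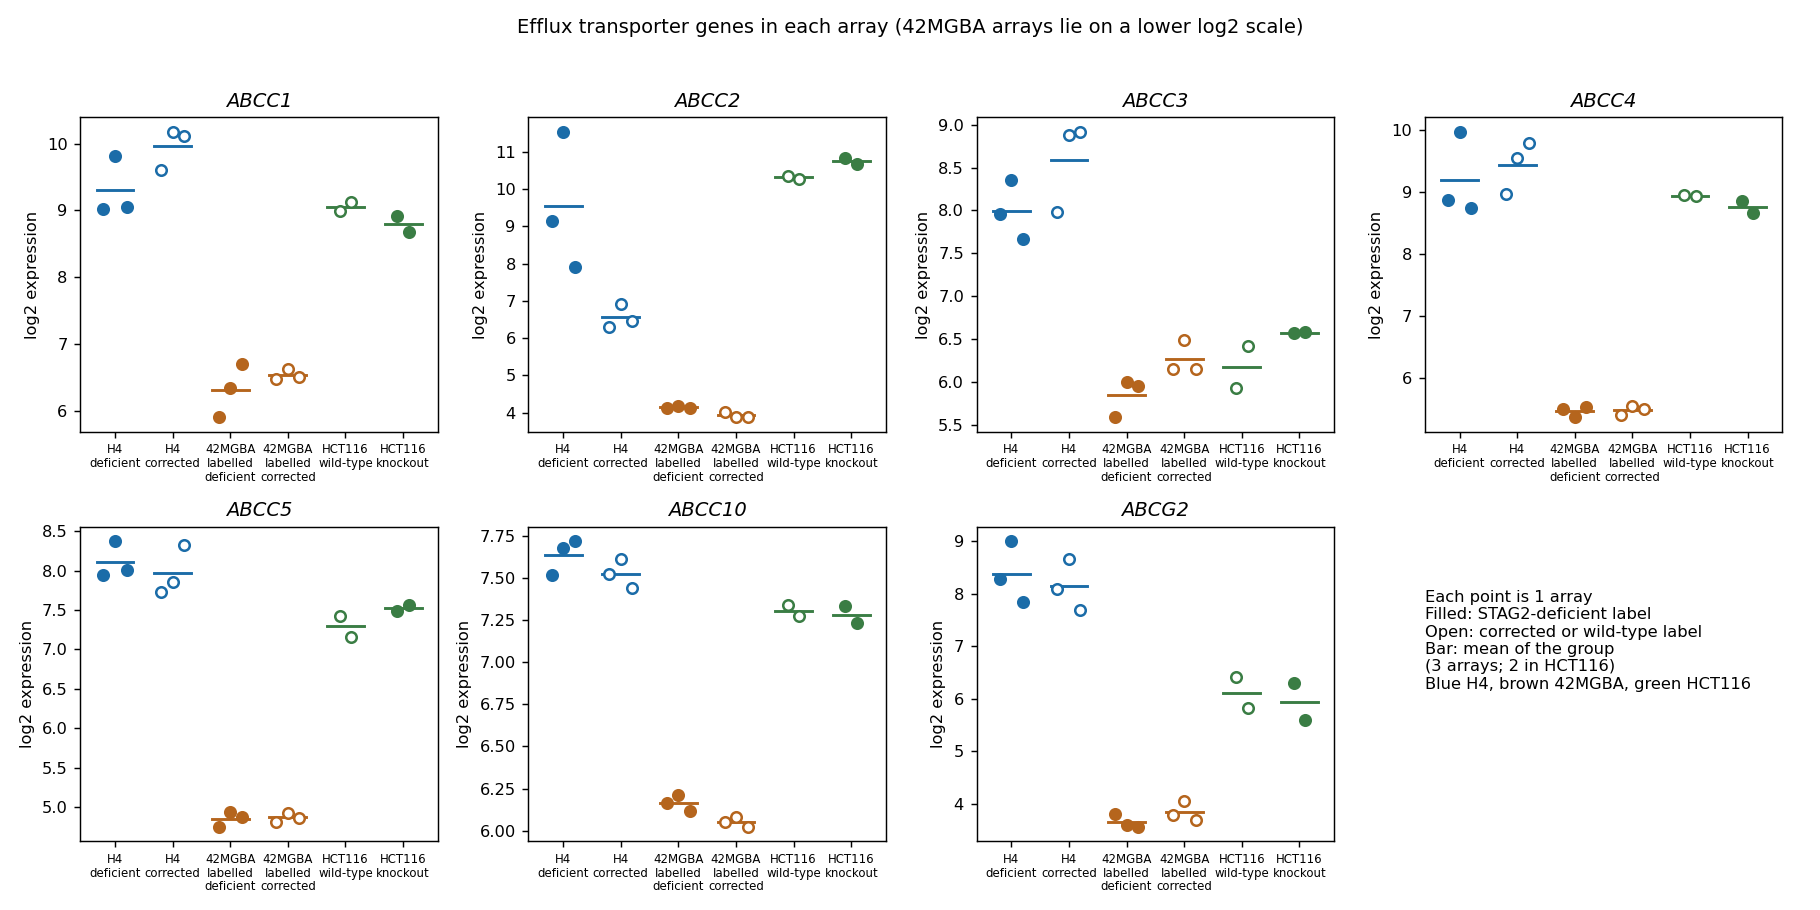
Log2 expression of the 7 genes in each of the 16 arrays, 1 panel a gene, with the 6 groups along the x axis. Each point is 1 array, filled for a STAG2-deficient label and open for a corrected or wild-type label, and bars are group means. ABCC2 runs from 6.30 to 11.54 in H4 but stays within 0.54 in HCT116, and the 42MGBA arrays lie on a lower scale.

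ABCC2, which exports conjugated bilirubin and drugs such as methotrexate and cisplatin conjugates, was the gene of the group with the widest range in H4. Its log2 level was 9.14 in the parental line, 11.54 in clone 10 and 7.92 in clone 12. In the corrected clones it was 6.30 in 8-1, 6.91 in 8-3 and 6.46 in 88-1. All deficient arrays were above all corrected arrays, but the deficient arrays lay much farther apart than the corrected ones, at 9.53 ± 1.84 (SD, n = 3) against 6.56 ± 0.32 (SD, n = 3). Only 5 of the 12978 genes had a larger SD among the deficient H4 arrays, and 2 had a larger range over the 6 H4 arrays than the 5.24 of ABCC2.

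The H4 difference in ABCC2 was 2.98 on the log2 scale (SE 0.57), or 7.88-fold, the 3rd largest of all genes tested in size. It was 1.97 without clone 10, 3.79 without clone 12 and 3.17 without the parental array. These numbers chose the gene and are given as a description only. In this contrast 3.31% of all genes tested passed limma's threshold of an adjusted p of 0.05, and 20.8% had groups that did not overlap. Of the 7 transporter genes 1, ABCC2, did either, and nothing is read from this count. With only the H4 arrays in the fit the SE was 0.78.

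ABCC2 in HCT116 was among the brighter rows of every array. It was 10.35 and 10.28 in the wild-type clones 24 and 27, and 10.82 and 10.69 in the knockout clones 7 and 21. Both knockout clones were above both wild-type clones, by a mean of 0.44 (SE 0.70, 95% interval -1.05 to 1.93, adjusted p = 0.928), which did not pass the test. The spread that enters this SE is shared with H4, where ABCC2 varied most. With the HCT116 arrays alone the SE was 0.11 and the adjusted p 0.598.

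ABCC2 in 42MGBA was below the array median in every array. It was 4.13 in the parental line, 4.16 in clone 53 and 4.13 in clone 92, and 4.01, 3.88 and 3.87 in the clones 53-1, 53-7 and 92-6 labelled corrected. The groups did not overlap, with a mean difference of 0.22 (SE 0.57, 95% interval -0.999 to 1.43, adjusted p = 1.00), which did not pass. With the 42MGBA arrays alone the SE was 0.09 and the adjusted p 0.995. No array lay under its lower quartile, which was 3.38 to 3.41 in this line.

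As percentiles within an array, ABCC2 stood at 93.6 ± 0.2 (SD, n = 2) in wild-type and 95.4 ± 0.3 (SD, n = 2) in knockout HCT116 arrays. The deficient H4 arrays stood at 85.5 ± 12.4 (SD, n = 3) and the corrected ones at 53.9 ± 4.9 (SD, n = 3). In 42MGBA it stood at 36.5 ± 0.4 (SD, n = 3) under the deficient and 33.2 ± 1.1 (SD, n = 3) under the corrected label. Clone 10, at 97.6, was the only H4 array above all HCT116 arrays, and corrected clone 8-1, at 49.9, was the only H4 array under its median. The log2 difference of corrected H4 minus wild-type HCT116 was -3.76, or 13.5-fold lower. That value is a description, since the corrected H4 arrays entered the choice of the gene.

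**Figure D2:**
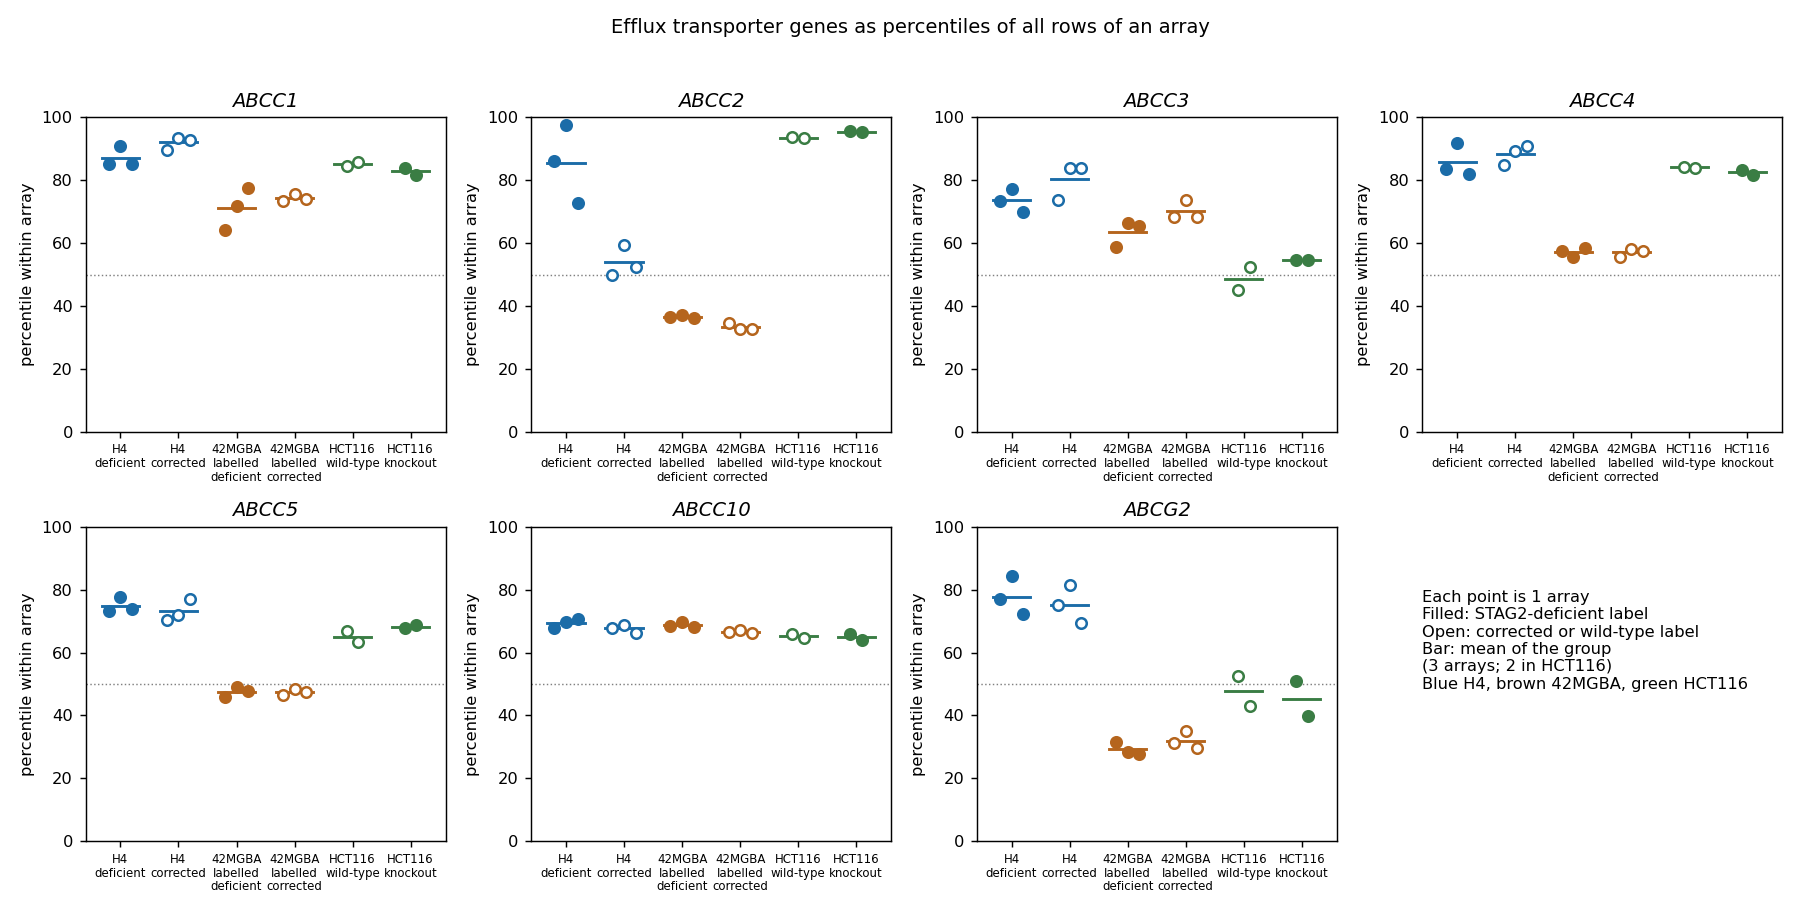
The same 16 arrays with each gene given as its percentile among all rows of its array, which can be set side by side between lines. Filled points carry a STAG2-deficient label, open points a corrected or wild-type label, bars are group means, and the dotted line is the array median. ABCC2 spans 49.9 to 97.6 in H4 and ABCC10 stays between 64.0 and 70.7 in all 16 arrays.

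The genes beside ABCC2 on chromosome 10 did not share its pattern in H4. They are, in order, COX15 (a haem A synthesis enzyme), CUTC (a copper-binding protein), ABCC2, DNMBP (a scaffold for dynamin) and CPN1 (a secreted carboxypeptidase subunit). Deficient minus corrected, COX15 differed by 0.01, CUTC by -0.26, DNMBP by -0.08 and CPN1 by 0.07, against 2.98 for ABCC2. In HCT116 the same differences were 0.05, -0.31, 0.18 and 0.40, against 0.44 for ABCC2. CPN1 was above the array median on fewer than 2 arrays and was not tested.

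**Figure D3:**
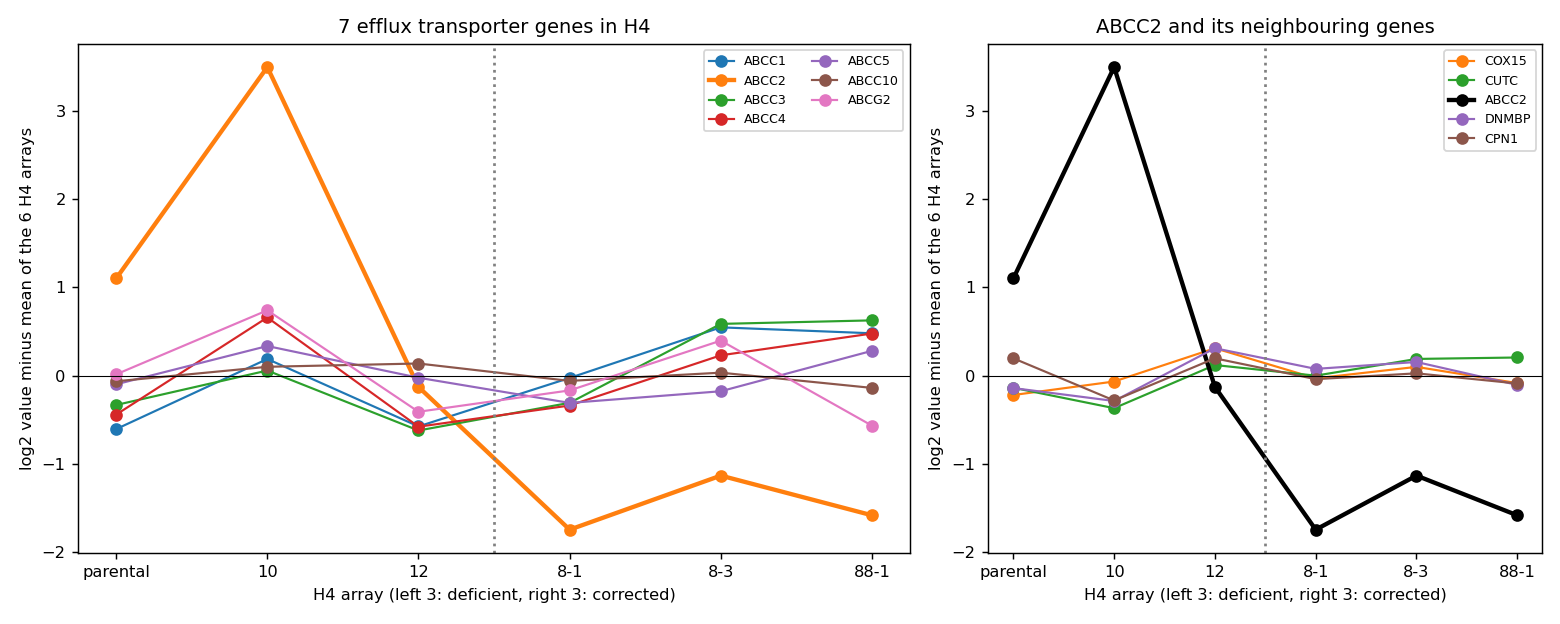
Log2 value of each gene minus its mean over the 6 H4 arrays, for the 7 transporter genes (left) and for ABCC2 with its 4 neighbours on chromosome 10 (right). Arrays left of the dotted line are deficient and those right of it corrected, and lines only join the points of 1 gene. ABCC2 departs from the others in clone 10, where 6 of the 7 genes have their highest deficient value.

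Clone 10, in which ABCC2 was highest, also had the highest of the 3 deficient H4 values for 5 of the other 6 transporter genes, all but ABCC10. It did so for 35.7% of all 12978 genes. Clone 10 exceeded the mean of the other deficient arrays by 3.01 for ABCC2, and no tested gene had a larger excess. The excess was 1.17 for ABCC4, with 66 of the tested genes above it, 0.94 for ABCG2 with 147 above it, and 0.78 for ABCC1 with 249 above it. For ABCC3 it was 0.54, for ABCC5 0.40 and for ABCC10 0.06. Clone 10 also stood apart from the other H4 arrays over all genes, as given above, and the part this played in the pump genes was not tested.

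ABCC1 and ABCC3, pumps of the basolateral membrane of epithelia, had lower means in deficient than in corrected H4 arrays. ABCC1, which exports glutathione conjugates and leukotrienes, was 9.03, 9.82 and 9.06 in the parental line and clones 10 and 12, and 9.61, 10.18 and 10.11 in clones 8-1, 8-3 and 88-1. Its mean difference was -0.66 (SE 0.22), and the groups overlapped through clone 10. ABCC3, which exports glucuronides and bile acids, was 7.96, 8.35 and 7.67 in the deficient and 7.98, 8.88 and 8.92 in the corrected arrays. Its mean difference was -0.60 (SE 0.23), and the groups overlapped through clones 10 and 8-1. Without clone 10 the ABCC1 difference was -0.92, and without clone 8-1 the ABCC3 difference was -0.91. These arrays are the ones through which the groups overlapped.

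ABCC1 in HCT116 was 8.99 and 9.13 in the wild-type and 8.91 and 8.67 in the knockout clones. Both knockout clones were lower, by a mean of 0.27 on the log2 scale (SE 0.27, adjusted p = 0.860), which did not pass. In 42MGBA it was 5.90, 6.34 and 6.70 in arrays labelled deficient and 6.47, 6.63 and 6.51 in arrays labelled corrected. These groups overlapped, with a difference of -0.22 (SE 0.22, adjusted p = 1.00) that was -0.015 without the parental array, -0.41 without clone 92 and -0.04 with the parent clone as a block.

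ABCC3 was the one gene of the 7 whose groups separated in opposite directions in the 2 lines that did not enter the choice. In HCT116 it was 5.92 and 6.42 in wild-type and 6.56 and 6.59 in knockout clones, a difference of 0.40 (SE 0.28, 95% interval -0.21 to 1.01, adjusted p = 0.777). This was 0.15 without wild-type clone 24 and 0.65 without clone 27. In 42MGBA it was 5.59, 5.99 and 5.96 under the deficient and 6.15, 6.49 and 6.15 under the corrected label, a difference of -0.42 (SE 0.23, 95% interval -0.92 to 0.08, adjusted p = 1.00), which was -0.27 with the parent clone as a block. The difference between these differences was -0.82 (SE 0.37, 95% interval -1.61 to -0.04). Its unadjusted p was 0.0415 and its adjusted p over all genes 0.996 by limma, so it did not pass. Groups that do not overlap were found for 40.7% of all genes in HCT116 and 8.91% in 42MGBA. The share of genes that separate in opposite directions was not counted.

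ABCC4 and ABCC5 export cyclic nucleotides, and ABCC4 also prostaglandins and urate. In H4 ABCC4 was 8.87, 9.97 and 8.73 in the deficient and 8.97, 9.54 and 9.79 in the corrected arrays, with a difference of -0.24 (SE 0.25) that was -0.63 without clone 10 and -0.01 without clone 12. ABCC5 was 7.94, 8.37 and 8.01 in the deficient and 7.73, 7.86 and 8.32 in the corrected arrays, with a difference of 0.14 (SE 0.14) that was 0.007 without clone 10. The H4 groups overlapped for both genes, and clone 10 held the highest value of all 6 arrays for each.

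In HCT116 ABCC4 was 8.94 and 8.93 in wild-type and 8.85 and 8.66 in knockout clones (difference -0.18, SE 0.31, adjusted p = 0.943). ABCC5 was 7.43 and 7.16 in wild-type and 7.48 and 7.56 in knockout clones (difference 0.23, SE 0.18, adjusted p = 0.808). Neither passed, though the clones did not overlap, and without 1 array they were -0.08 (clone 21) and 0.09 (clone 27). In 42MGBA ABCC4 lay between 5.36 and 5.55 and ABCC5 between 4.75 and 4.95, with both differences at -0.02 and adjusted p = 1.00. The sign of these last differences turned to 0.003 and 0.006 when arrays were centred on their medians, so neither has a direction.

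ABCC10, which exports taxanes in cultured cells, had the narrowest range of the 7 genes in H4 and in HCT116, and in 42MGBA ABCC4 had a slightly narrower one (0.188 against 0.190). In H4 it was 7.52, 7.68 and 7.72 in the deficient and 7.52, 7.61 and 7.44 in the corrected arrays, a difference of 0.11 (SE 0.08). Its range over the 6 H4 arrays was 0.28, and 77.4% of tested genes had a larger one. In 42MGBA it was 6.16, 6.21 and 6.11 under the deficient and 6.05, 6.08 and 6.02 under the corrected label. These groups did not overlap, with a difference of 0.11 (SE 0.08, adjusted p = 1.00). In HCT116 the values were 7.34 and 7.27 in wild-type and 7.33 and 7.23 in knockout clones, with overlap and a difference of -0.02 (SE 0.10, adjusted p = 0.981).

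ABCG2, the pump for mitoxantrone and topotecan, had overlapping groups in all 3 lines. In H4 it was 8.27, 9.0 and 7.85 in the deficient and 8.09, 8.66 and 7.69 in the corrected arrays, a difference of 0.23 (SE 0.29) that was -0.08 without clone 10. In HCT116 it was 6.42 and 5.81 in wild-type and 6.30 and 5.59 in knockout clones, so that 1 clone of each group stood above the array median and 1 below it. That difference was -0.17 (SE 0.35, 95% interval -0.92 to 0.58, adjusted p = 0.956). In 42MGBA it was 3.80, 3.60 and 3.56 under the deficient and 3.78, 4.06 and 3.68 under the corrected label, a difference of -0.19 (SE 0.29, adjusted p = 1.00).

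No transporter gene passed the test with STAG2 outside H4. In HCT116 0 of 7 passed, beside 0.131% of all genes tested, and in 42MGBA 0 of 7 passed, beside 0% of all genes. By an unadjusted p under 0.05, limma gave 0 of the 7 in either line, against 1016 of all genes in HCT116 and 512 in 42MGBA. These tests use 1 spread per gene over all lines, so H4, whose values chose the group, enters their SEs. With only the arrays of each line the SE of ABCC3 in 42MGBA was 0.14 in place of 0.23, for a difference of -0.42. In those fits 0 of 7 passed the adjusted threshold as well. Their unadjusted count was not taken, so nothing is read from the unadjusted 0 of 7 in the shared fit. In HCT116 the clones did not overlap for 5 of 7 genes, with ABCC2, ABCC3 and ABCC5 higher and ABCC1 and ABCC4 lower in the knockouts, beside 40.7% of all genes. In 42MGBA they did not overlap for 3 of 7 genes, with ABCC2 and ABCC10 higher and ABCC3 lower under the deficient label, beside 8.91% of all genes. The difference between the 42MGBA and HCT116 effects passed for 0 of 7 genes, beside 0.0231% of all genes, and by an unadjusted p under 0.05 for 1, ABCC3, beside 630 of all genes. ABCC2 had the widest intervals, up to 1.93 in HCT116 and 1.43 in 42MGBA, but their width includes the spread of ABCC2 in H4. With the arrays of each line alone its SE was 0.11 in HCT116 and 0.09 in 42MGBA, for differences of 0.44 and 0.22. For ABCC10 the HCT116 interval ran from -0.24 to 0.19.

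**Figure D4:**
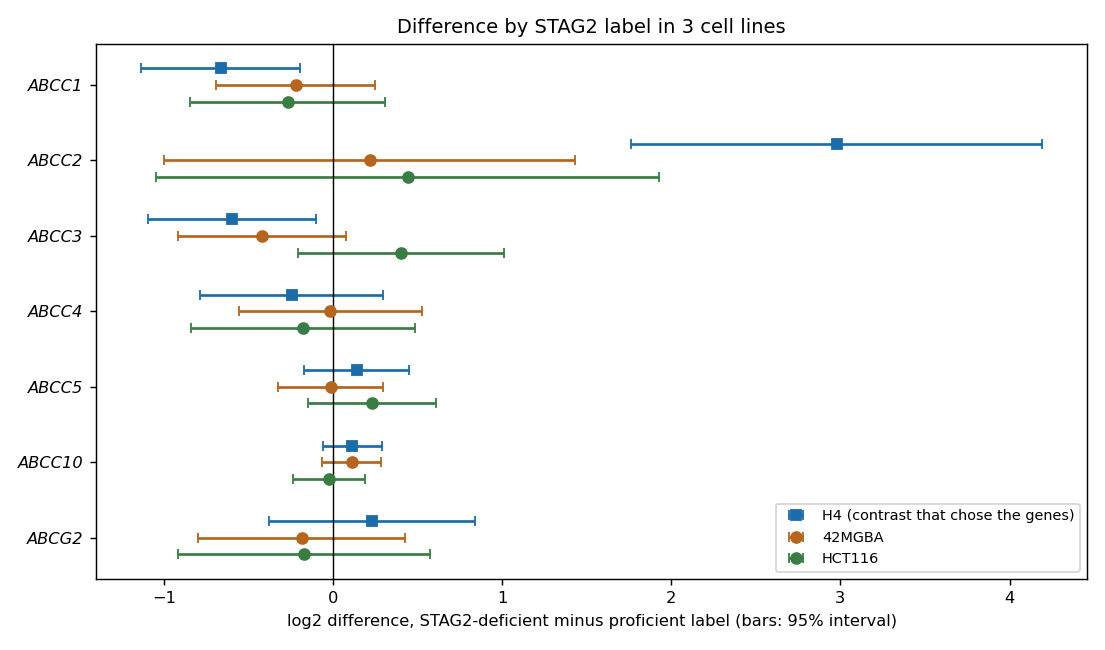
Log2 difference of each gene, STAG2-deficient minus proficient label, in H4 (squares), 42MGBA and HCT116 (circles), with 95% intervals from 1 limma fit of all 16 arrays. The H4 values chose the group and are a description. All 14 intervals of 42MGBA and HCT116 include 0, and the ABCC2 interval of H4 runs from 1.76 to 4.19. The spread behind every interval is shared over the lines, H4 included.

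Between H4 and HCT116, ABCC1, ABCC3, ABCC5 and ABCG2 passed the test, all higher in H4. Corrected H4 clones were set against wild-type HCT116 clones, the groups with functional STAG2 whose arrays share a scale. ABCC3 was higher in H4 by 2.42 (SE 0.26, adjusted p = 1.97e-06), or 5.35-fold, at 8.59 ± 0.53 (SD, n = 3) against 6.17 ± 0.35 (SD, n = 2). ABCG2 was higher by 2.03 (SE 0.32, adjusted p = 8.2e-05), or 4.08-fold, at 8.15 ± 0.48 (SD, n = 3) against 6.12 ± 0.43 (SD, n = 2). ABCC1 was higher by 0.91 (SE 0.25, adjusted p = 0.00611) and ABCC5 by 0.67 (SE 0.16, adjusted p = 0.00261). ABCC4 (0.50, SE 0.28, adjusted p = 0.154) and ABCC10 (0.22, SE 0.09, adjusted p = 0.0565) did not pass. ABCC2 alone was lower in H4.

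With ABCC2 left aside, 4 of the other 6 genes passed, beside 52.7% of all genes tested, and the groups did not overlap for any of the 6, beside 72.9% of all genes. Differences between these lines, which differ in tissue of origin, were common over all genes. Leaving out wild-type clone 24 left 3 of the 6 passing, since ABCC1 then had an adjusted p of 0.0518. Leaving out corrected clone 8-1 added ABCC4 (adjusted p = 0.0443), and leaving out 88-1 added ABCC10 (adjusted p = 0.0447).

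Percentiles gave the order of lines gene by gene. ABCG2 stood highest in H4, at 77.8 in deficient and 75.3 in corrected arrays, then in HCT116 at 47.8 in wild-type and 45.3 in knockout arrays, and lowest in 42MGBA at 29.3 and 31.9, with no overlap between the arrays of the 3 lines. ABCC3 stood highest in H4 (73.6 and 80.5), then in 42MGBA (63.6 and 70.1), and lowest in HCT116 (48.7 in wild-type and 54.6 in knockout arrays), and the H4 and 42MGBA arrays overlapped. ABCC4 stood at 85.8 and 88.4 in H4 and at 84.1 and 82.6 in HCT116, whose ranges overlapped, against 57.1 in both 42MGBA groups. ABCC1 stood at 87.0 and 92.0 in H4, 85.3 and 82.9 in HCT116 and 71.2 and 74.4 in 42MGBA, and again the H4 and HCT116 arrays overlapped. ABCC5 stood at 74.9 and 73.2 in H4, 65.1 and 68.3 in HCT116 and 47.6 and 47.4 in 42MGBA, with no overlap between lines. ABCC10 stood between 64.9 and 69.4 in all 6 groups, with every HCT116 array below every array of the other lines and overlap between H4 and 42MGBA.

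ABCC1, ABCC4 and ABCC10 were above the array median on all 16 arrays, ABCC3 on 15, ABCC5 on 10, ABCC2 on 9 and ABCG2 on 8. None of the 7 fell below the lower quartile on any array.

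Within groups, ABCC1, ABCC3 and ABCC4 varied together. After each group's mean was subtracted, Pearson's r over the 16 arrays was 0.79 for ABCC1 with ABCC3, 0.79 for ABCC1 with ABCC4 and 0.72 for ABCC3 with ABCC4. Without clone 10 these were 0.76, 0.59 and 0.74. With only the line's mean subtracted, so that the difference between the line's groups also enters, the same pairs had r of 0.93, 0.83 and 0.81 in H4 and 0.77, 0.28 and 0.19 in 42MGBA. In both HCT116 groups ABCC3 and ABCC4 deviated from their group means in opposite directions. ABCC1 went with ABCC3 in the wild-type and with ABCC4 in the knockout clones. Some of these deviations were small, such as 0.008 for ABCC4 in wild-type clone 24. ABCC2 with ABCC4 gave the highest r of the 21 pairs, 0.84, but it was 0.33 without clone 10. ABCC2 with ABCG2 was 0.71 with and 0.54 without it, and ABCC4 with ABCC5 was 0.75 and 0.65. ABCC10 correlated with ABCG2 at 0.50 and with the other 5 genes between -0.05 and 0.17. These correlations are a description, over arrays that share clones and array scale.

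**Figure D5:**
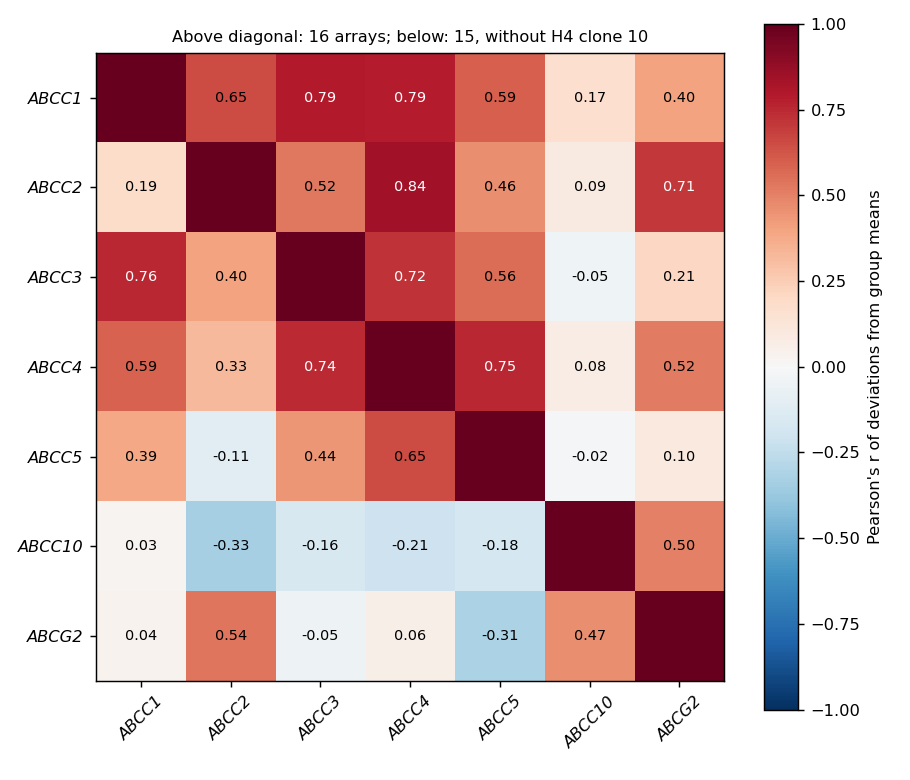
Pearson's r between the genes after subtracting each group's mean, over all 16 arrays above the diagonal and over 15 arrays without H4 clone 10 below it. Red is positive and blue negative. The block of ABCC1, ABCC3 and ABCC4 keeps r of 0.59 or more without clone 10, while ABCC2 with ABCC4 goes from 0.84 to 0.33.

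The genes with the pattern most like ABCC2 were sought by Pearson's r over the 16 arrays after each line's mean was subtracted. They were PCDH10, a protocadherin (0.96), SYTL5, a synaptotagmin-like trafficking protein (0.95), ADAMTS19, a secreted metalloprotease (0.95), SEMA3D, a semaphorin (0.95), and CADPS2, a factor of vesicle release (0.93). In H4 alone each had r of 0.96 or more with ABCC2. Over the 10 arrays of the other lines r was -0.44, 0.04, 0.26, 0.08 and 0.53, so the likeness lay in H4. Leaving out the 2 arrays farthest from the median of ABCC2 gave r of 0.88, 0.93, 0.91, 0.86 and 0.72. ADAMTS19 was 9.93, 10.62 and 8.93 in deficient and 7.20, 7.85 and 7.95 in corrected H4 arrays, with clone 10 the highest of the 6, as for ABCC2.

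For the other transporter genes the 2 most alike were ACSS2 (0.93) and CAPRIN2 (0.93) for ABCC1, ITPR2 (0.90) and CRYBG3 (0.89) for ABCC3, and TUBA1A (0.94) and UNC50 (0.90) for ABCC4. They were JUND (0.92) and H6PD (0.91) for ABCC5, DNAJC6 (0.84) and RASL11A (0.84) for ABCC10, and MRI1 (0.82) and TSKU (0.82) for ABCG2. Over the 10 arrays outside H4 ACSS2 and CAPRIN2 kept r of 0.87 and 0.91 with ABCC1, and JUND and H6PD kept 0.89 and 0.86 with ABCC5. TUBA1A, at 0.99 with ABCC4 in H4, had r of -0.07 outside it.

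Other ABC transporter genes were compared by STAG2 label as well. Of 21 further ABCB, ABCC and ABCG genes 8 were tested. They were ABCB1, ABCB6, ABCB8, ABCB9, ABCB10, TAP1, TAP2 and ABCG4, with no further ABCC gene among them. Of the 8, 0 passed limma's threshold in H4, 42MGBA or HCT116, beside 3.31%, 0% and 0.131% of all genes tested. Nothing is read from these counts, and that of H4 is a description. By an unadjusted p under 0.05 limma gave 1 in H4, 0 in 42MGBA and 1 in HCT116, beside 2123, 512 and 1016 of all 12978 genes tested. In H4 and HCT116 this was TAP2, a subunit of the peptide pump for antigen presentation, with opposite signs (0.38 in H4 and -0.37 in HCT116). The median differences of the 8 genes were 0.14, -0.02 and -0.02, against 0.02, -0.03 and -0.01 over all genes. ABCB1, the P-glycoprotein pump, was tested in each line, and its difference of 0.09 (SE 0.13) in H4 compared with 0.18 (SE 0.13) for 42MGBA and 0.21 (SE 0.15) for HCT116. Its 42MGBA group means of 3.04 and 2.86 lay under the lower quartiles of that line's arrays (3.38 to 3.41), so that difference is one of a dim row. Between corrected H4 and wild-type HCT116, 3 of the 8 were higher and 2 lower, with ABCB1 higher by 2.09 (adjusted p = 1.12e-08). These counts stand beside 52.7% of all genes in either direction. Of 9 tested ABCA, ABCD, ABCE and ABCF genes 1 passed in H4, ABCA1, the cholesterol exporter, whose difference was -0.87 (SE 0.21), beside 3.31% of all genes, and nothing is read from this count. In 42MGBA and HCT116 0 of the 9 passed, with 0 and 1 at an unadjusted p under 0.05, beside the same 512 and 1016 of all genes. Between corrected H4 and wild-type HCT116, 2 of the 9 were higher in H4 and 5 lower, with ABCA1 higher by 3.85 (adjusted p = 3.74e-09), again beside 52.7% of all genes.

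NRF2 is a transcription factor that switches on several ABCC genes together with enzymes of the oxidative stress response. Of 18 tested genes of its pathway 0 passed limma's threshold in any of the 3 lines. Over all genes 3.31% passed in H4, 0% in 42MGBA and 0.131% in HCT116. Nothing is read from these counts of 0, and that of H4 is a description. At an unadjusted p under 0.05 there were 0 in H4, 5 in 42MGBA and 2 in HCT116, beside 2123, 512 and 1016 of all 12978 genes tested. The median difference was 0.09 in H4 (14 of 18 positive), 0.08 in HCT116 (13 of 18 positive) and -0.15 in 42MGBA (2 of 18 positive). Over all genes the medians were 0.017, -0.014 and -0.029 in the same order, with 54.4%, 46.6% and 39.7% positive. NQO1, a quinone reductase, differed by 0.85 in HCT116 (SE 0.19, adjusted p = 0.139) and by -0.38 in 42MGBA (SE 0.15, adjusted p = 1.00). SLC7A11, which imports cystine for glutathione, differed by 0.58 in HCT116 (SE 0.26, adjusted p = 0.619) and by -0.55 in 42MGBA (SE 0.21, adjusted p = 1.00). In H4 these differed by 0.15 and 0.28. Between corrected H4 and wild-type HCT116, 14 of the 18 were higher in H4 and 1 was lower, with SLC7A11 higher by 3.58 (adjusted p = 8.88e-09) and NQO1 by 1.46 (adjusted p = 5.09e-06), beside 52.7% of all genes in either direction.

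Enzymes that make the conjugates these pumps export were listed as well. Of 17 tested glutathione and conjugation enzymes 0 passed by limma in any line. Over all genes 3.31% passed in H4, 0% in 42MGBA and 0.131% in HCT116. Nothing is therefore read from counts of 0 in this and the next lists. Median differences were 0.03 in H4, 0.01 in 42MGBA and 0.13 in HCT116, against 0.02, -0.03 and -0.01 over all genes. At an unadjusted p under 0.05 there were 1 in H4, 1 in 42MGBA and 0 in HCT116. For this and the next lists, such counts over all 12978 genes tested were 2123 in H4, 512 in 42MGBA and 1016 in HCT116. Of 11 tested xenobiotic receptors and cytochromes, 2 passed in H4, CYP4F11 with a difference of 1.51 (SE 0.30) and CYP2J2 with -0.93 (SE 0.24), beside 3.31% of all genes. The H4 counts of all these lists are a description, since that contrast chose the pumps. In 42MGBA and HCT116 0 passed, also at an unadjusted p under 0.05. Between corrected H4 and wild-type HCT116, 7 of these 11 were higher in H4 and 1 lower, and of the conjugation enzymes 6 of 17 were higher and 5 lower, beside 52.7% of all genes. Of 9 tested organic ion uptake and multidrug extrusion carriers 0 passed in any of the 3 lines, with 4 in H4, 1 in 42MGBA and 3 in HCT116 at an unadjusted p under 0.05. SLCO3A1, an organic anion uptake carrier, came nearest in HCT116, at 1.15 (SE 0.22, adjusted p = 0.0709), and differed by -0.41 in H4 and -0.47 in 42MGBA. A last list held membrane anchors of ABCC2 and its apical partners, such as radixin (RDX). Of its 5 tested genes 0 passed in any line, with 1 in H4 and 0 in the others at an unadjusted p under 0.05. RDX differed by 0.10 in H4, -0.16 in 42MGBA and 0.14 in HCT116. Between corrected H4 and wild-type HCT116, 1 of the 9 carriers was higher and 5 lower, beside the same 52.7%. Of the 5 genes of the last list 1 was higher and 1 lower. These lists do not include the 7 transporter genes.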

How the data were processed

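Total RNA of 16 cultures was measured on Affymetrix Human Gene 1.0 ST arrays. The deposited table holds 33297 rows of log2 expression values, which the authors computed by RMA in Affymetrix Expression Console, as the submitters' processing notes name them, with versions not given in the sources used here. The platform annotation gave 1 gene symbol for 19460 rows, several for 1754 and none for 12083. Symbols of 19429 rows were updated through RefSeq (GRCh38.p14). The highest-mean row stood for a gene, and genes above the array median on at least 2 arrays were tested (12978).

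Differences came from limma 3.58.1 in R 4.3.3, with 16 arrays in 1 fit of 6 groups sharing 1 spread per gene, two-sided p-values and Benjamini-Hochberg adjustment over all tested genes at 0.05. The fit was tested on simulated data. The number of arrays limits the precision. Alternatives were the filter, scaling, variance trend, arrays used, averaged sister clones, a parent clone block and leaving out arrays. All transporter genes were named, list genes by smallest p or else largest difference, and similar genes by highest correlation. The genes and lists were chosen with earlier results of these data known.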

Additional observations from a re-analysis of the deposited data

Results flagged for a closer look

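ABCC3, the basolateral exporter of glucuronides and bile acids, separated the groups in opposite directions in 42MGBA and HCT116. Its deficient minus proficient difference was -0.42 in 42MGBA, where all 3 arrays labelled deficient were below all 3 labelled corrected, and 0.40 in HCT116, where both knockout clones were above both wild-type clones. Over all genes the groups did not overlap for 8.91% in 42MGBA and 40.7% in HCT116. The share that separates in opposite directions was not counted, and the 42MGBA direction rests on labels that STAG2 did not separate. The HCT116 value was 0.15 without wild-type clone 24 and 0.65 without clone 27. The difference between them, -0.82 (SE 0.37), had an adjusted p of 0.996 by limma over all genes and did not pass.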

How the results depend on the processing

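The counts of transporter genes that passed in 42MGBA, in HCT116 and in the difference between them were 0 under every alternative run, the parent clone block in 42MGBA included (0 in each fit with it, the one with the HCT116 arrays being chosen after seeing the data). In H4 the count was 1, but 0 with sister clones averaged and 0 with only the H4 arrays, and 1 to 2 when arrays were left out in turn. These H4 counts are a description. Between corrected H4 and wild-type HCT116 it was 5 with ABCC2 counted, and 4 to 6 when arrays were left out. Differences near 0 changed sign. In 42MGBA, ABCC4 (-0.02) was 0.0033 with arrays centred and 0.0017 after quantile normalisation, and ABCC5 (-0.02) was 0.0063, 0.0137, 0.0426 with the parent clone block and 0.0369 without parental arrays. The 42MGBA minus HCT116 difference of ABCC1 (0.05) was -0.0014 after quantile normalisation, and that of ABCG2 (-0.02) was 0.0072 with arrays centred and 0.0246 with sister clones averaged. Leaving out 1 array at a time gave -0.1448 to 0.2541 and -0.374 to 0.3429 for these, -0.0602 to 0.0319 for ABCC4 and -0.0599 to 0.0369 for ABCC5 in 42MGBA, -0.073 to 0.0253 for ABCC10 and -0.53 to 0.1869 for ABCG2 in HCT116, and -0.0849 to 0.4903 for ABCG2 in H4. The causes were not tested. Over all genes the count passed ranged from 34 to 633 in H4 (429), from 3 to 77 in HCT116 (17) and from 0 to 9 in 42MGBA (0).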
